A study of Homo sapiens with 4 samples.

Results

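The comparison set a library from HT29 cells given a precursor of the microRNA miR-23b against the library of its control, 1 library each. HT29 is an established human colon adenocarcinoma cell line, and the precursor is a transfected RNA from which cells make more of the microRNA. Members were the genes whose transcripts, summed over all transcript entries that had not failed quantification, reached a mean of at least 5 FPKM over the pair of libraries. FPKM relate reads to the length of a transcript and to the size of the library. Just inside that threshold were 584 genes at a mean of 5 to 6 FPKM, and just outside 632 at 4 to 5. It kept 11172 genes of the 53617 listed, 9244 of them protein-coding, and 9389 of them had at least 2 transcripts and a value in both libraries. The cells of both groups were at passage 12 to 13, at 90% confluency in medium with 5% serum, and received precursor or control at 50 nM (spelled 50nm in the labels) with Lipofectamine 2000. Medium was replaced at 24 h and RNA was extracted with Trizol at 48 h. The whole series held 4 libraries, the other two being an antimir against miR-23b, an oligonucleotide that blocks the microRNA, and its own control.

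MicroRNAs are short RNAs that guide Argonaute proteins to messenger RNAs, mostly through pairing of the seed, bases 2 to 8 of the microRNA, with sites in the 3′ untranslated region. Paired messengers are translated less and lose their poly(A) tail sooner, so a transfected microRNA is usually read out as many small decreases. The miR-23 family has been studied in glutamine metabolism, TGF-beta signalling and epithelial plasticity, and miR-23b is encoded within an intron of C9orf3 beside miR-27b and miR-24.

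The mature sequences below, from RefSeq on GRCh38.p14, show why the family members share targets, with the seed in capitals. The 3p strand of miR-23b lies at chr9:95085265-95085287 on the plus strand.
hsa-miR-23b-3p: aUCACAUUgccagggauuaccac
hsa-miR-23a-3p: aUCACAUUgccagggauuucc
hsa-miR-23c: aUCACAUUgccagugauuaccc
hsa-miR-23b-5p: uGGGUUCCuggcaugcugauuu
The seed was the same in miR-23b-3p, miR-23a-3p and miR-23c, and another in the opposite strand, miR-23b-5p. A site for miR-23b-3p was therefore the 7-mer AATGTGA in the messenger, and a site followed by an A was counted as an 8-mer.

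Because each group held 1 library, no difference below has a replicate error and none was tested. The depth of either library is unknown, since no read counts come with FPKM. The median level of the genes kept was 25.4 FPKM with the precursor and 25.0 in the control. The 10 most abundant genes took 38.4% and 38.1% of all FPKM. Colon epithelial markers were abundant in both, with KRT8 at 6798 and 6665 FPKM, EPCAM at 743 and 689, and VIL1, an actin bundler of the brush border, at 139 and 134. Of 22 markers of other cell types, 19 were below 1 FPKM in both libraries and 8 of those were listed at 0 in both, among them PTPRC and CD3E of leukocytes and VWF and CDH5 of endothelium. The other 3 were LYZ, lysozyme, at 3606 and 3685 FPKM, and the myeloid markers CD68 at 5.59 and 4.18 and CD14 at 2.76 and 1.74. Their part in the results was not tested.

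Differences between the libraries were small and spread over many genes. They are given as the difference of log2(FPKM + 1), precursor minus control, from which the median over all genes kept, 0.03, was taken off. The scale understates the change of low genes. Over all 11172 genes, 145 were at least 1.5-fold higher (1.30%) and 190 at least 1.5-fold lower (1.70%), and of these 64 and 37 were listed at 0 in the other library. Short noncoding RNA genes and entries without a match in the reference annotation made up much of that count. Among protein-coding genes, 27 were past 1.5-fold upward and 35 downward, 0.671% of the 9244. The central 90% of protein-coding genes lay between -0.28 and 0.26.

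Among the 10 highest and 10 lowest protein-coding genes, the transcript with the largest difference in FPKM was of a protein-coding class in 8, of another class in 10 and without a match in the reference annotation in 2. The protein-coding transcripts of 8 of the 20 were past 1.5-fold in the direction of the sum, and the authors' deposited table called 2 of the 20 transcripts different. Without the transcript with the largest difference, 0 of the 20 genes stayed past 1.5-fold in that direction. DIO1, a deiodinase of thyroid hormone, had 0.379 FPKM with the precursor and 273 in the control, and differed by -7.72 in its protein-coding transcripts. Nearly all of it lay in ENST00000525202.1, an entry the authors' deposited table did not test. BTRC, a substrate receptor of an SCF ubiquitin ligase that acts on beta-catenin, stood at 12.1 against 38.5 FPKM. Of this, ENST00000539411.1 gave 4.30 and 32.3, and its protein-coding transcripts together differed by 0.02. PMS2, of mismatch repair, was at 46.2 against 82.5 FPKM, and at -0.10 in its protein-coding transcripts. PIGA, of GPI anchor synthesis, was at 14.9 against 4.61 FPKM, with 10.8 FPKM in ENST00000475746.1 alone, an entry at 0 in the control, and 2.02 in its protein-coding transcripts. CHSY1, a chondroitin synthase, was at 23.9 against 9.06 FPKM and at 0.02 in its protein-coding transcripts. NDUFA4L2, a hypoxia-induced mitochondrial protein, was at 17.8 against 9.31 FPKM and at 0.84 in its protein-coding transcripts. Without ENST00000556732.1, its sum differed by 0.36. EHBP1L1 was at 74.9 against 39.6 FPKM, mostly through the processed transcript ENST00000531106.1 at 50.6 against 17.3 FPKM, called higher in the authors' deposited table. Of all 62 protein-coding genes past 1.5-fold, 19 were past it in the same direction in protein-coding transcripts alone and 15 had the opposite sign there.

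Genes were then grouped by pathway and family. Of 90 groups with at least 5 measured members, 57 had a median above 0 and 33 below, and the median was at least 0.1 away from 0 in 12 groups upward and 8 downward. In all 92 groups together 20 of 2571 genes were past 1.5-fold, beside 62 of all 9244 protein-coding genes (0.671%). The groups were therefore read by how many members lay on each side of 0, beside a median of 0 over all genes, where 5586 lay above and 5586 below. In a bulk sample, fewer cells of a type and less RNA per cell cannot be told apart.

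**Figure D1:**
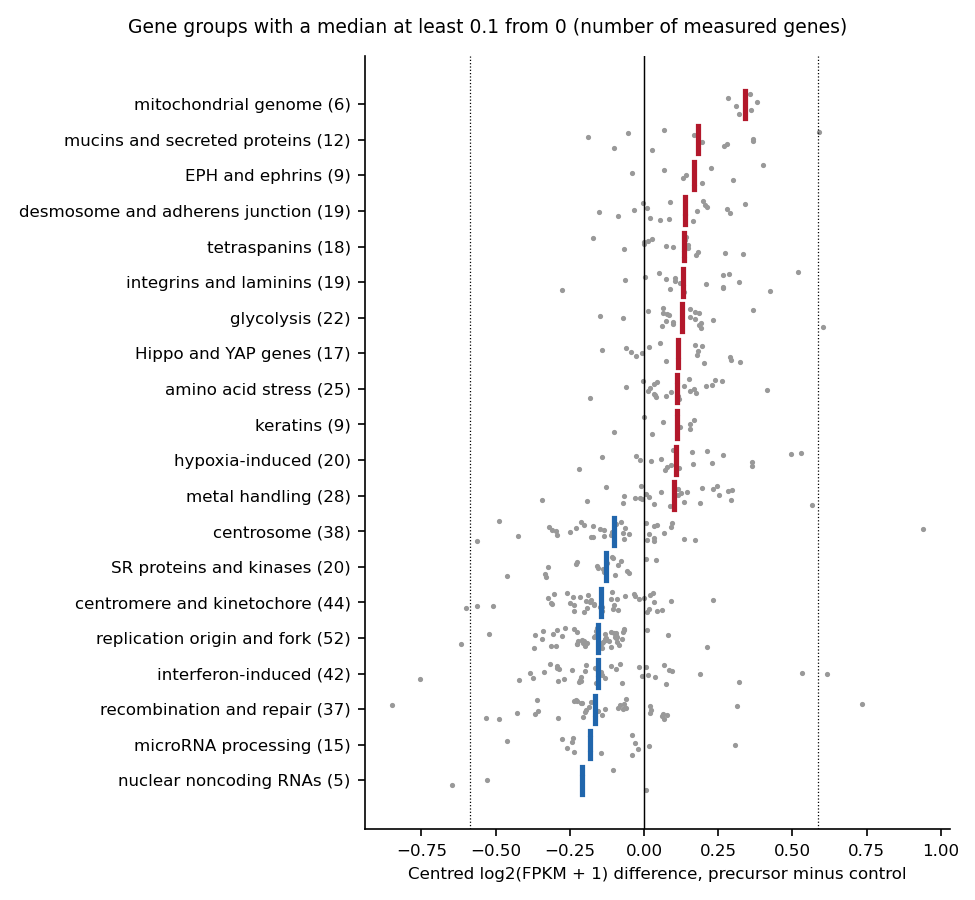
Centred log2(FPKM + 1) difference (x axis, precursor minus control) of each measured gene (grey points) in the 20 groups whose median (bar) was at least 0.1 from 0, with the number of genes in parentheses; dotted lines mark 1.5-fold. The 8 lower groups include replication, repair, kinetochore, interferon and microRNA processing genes, and the 6 mitochondrial messengers stand highest with a median of 0.34.

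Genes of DNA replication were lower nearly throughout. Of 52 measured members of the replication origin and fork, 49 were below 0, with a median of -0.15, and the median was -0.16 both in protein-coding transcripts alone and after centring within 5 groups of equal size by GC content. The helicase loaded at origins was lower in each measured subunit, MCM2 to MCM7, with MCM4 at 317 against 363 FPKM and MCM7 at 233 against 264. CDC45, which completes the active helicase, stood at 49.3 against 62.8 FPKM. POLE2, a subunit of the leading-strand polymerase, was at 12.1 against 17.5 FPKM and POLD3, of the lagging-strand polymerase, at 40.9 against 52.1. PCNA, the sliding clamp, was at 146 against 161 FPKM, and RFC4, of the clamp loader, at 55.9 against 69.6. GINS4 had the widest difference at 4.13 against 6.71 FPKM (-0.62), but -0.03 in its protein-coding transcripts. The members above 0 were RPA1, POLD4 and CDT1, the licensing factor, which was at 28.2 against 23.8 FPKM. In the authors' deposited table, 3.05% of the 328 tested transcripts of the group were called higher and 10.98% lower, against 6.91% and 6.66% of all 78175 tested transcripts.

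Repair and mitosis genes lay on the same side. Of 37 recombination and mismatch repair genes 28 were below 0, with a median of -0.16. BARD1, the partner of BRCA1, was at 23.2 against 33.4 FPKM, ATM, the kinase that senses double-strand breaks, at 35.8 against 49.6, and FANCI, of crosslink repair, at 144 against 181. RAD51B went the other way at 13.6 against 7.61 FPKM (0.74). Of 44 centromere and kinetochore genes 35 were below 0, with a median of -0.15, or -0.10 in protein-coding transcripts. CENPK, of the inner kinetochore, was at 69.1 against 96.9 FPKM, and TTK, the spindle checkpoint kinase, at 30.3 against 36.9. MAD1L1, of the same checkpoint, was at 40.7 against 33.8. The median was -0.10 for 38 centrosome genes, -0.08 for 44 cyclins and cyclin-dependent kinases, and -0.06 for 17 subunits of the anaphase-promoting complex. Of the 116 tested transcripts of that complex, the authors' deposited table called 2.59% higher and 12.9% lower, against 6.91% and 6.66% of all tested transcripts. Over the antimir library and its own control, the same kinetochore group had a median of 0.25 and the replication group 0.04, values that were not tested against those of the precursor.

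The machinery that makes and uses microRNAs was also lower. Of 15 measured genes 13 were below 0, with a median of -0.18, or -0.08 in protein-coding transcripts alone. DROSHA, which cuts the primary transcript in the nucleus, was at 170 against 189 FPKM, and XPO5, which exports the hairpin, at 105 against 122. DICER1, which cuts the hairpin in the cytoplasm, was at 27.6 against 32.1 FPKM and at -0.08 in protein-coding transcripts. EIF2C2, the older symbol of AGO2, was at 98.9 against 116 FPKM and at 0.00 in those transcripts. EIF2C4, another Argonaute, was at 18.0 against 14.1 FPKM. None of the 15 was past 1.5-fold.

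Interferon-induced genes formed another lower group, with 31 of 42 below 0 and a median of -0.16. IFI44L, at chromosome 1, 79085607 to 79108484 in hg19, had 7.75 against 13.5 FPKM (-0.75). MX1, an antiviral GTPase, was at 23.8 against 30.8 FPKM, OAS1, a sensor of double-stranded RNA, at 82.3 against 102, and IFI27 at 1144 against 1374. ISG15 hardly differed, at 167 against 162 FPKM. ISG20, an exonuclease, was higher at 17.8 against 11.04 FPKM (0.62). MX2 was higher in the sum, at 234 against 159 FPKM, and lower in protein-coding transcripts (-0.42). In the authors' deposited table, 11.6% of the 301 tested transcripts were called lower and 4.32% higher. Of all tested transcripts, 6.66% were called lower and 6.91% higher. The antimir comparison, with its own control, had a median of 1.10 in this group and 41 of 41 members above 0. Those values are set side by side, since the difference was not tested.

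On the higher side, the 6 measured messengers of the mitochondrial genome stood together between 0.28 and 0.38. MT-CO2 and MT-CO1, subunits of cytochrome oxidase, were at 10649 against 8420 FPKM and 6538 against 5001. The nuclear subunits of the respiratory chain did not share that level, with medians of 0.04 for 38 genes of complex I and 0.05 for 18 of complex IV. The antimir library stood on the other side of its control for the same 6 messengers, with a median of -0.35.

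Glycolysis genes were higher in 20 of 22 members, with a median of 0.13. ALDOC, an aldolase, was at 38.6 against 24.6 FPKM (0.60), SLC16A3, the lactate exporter, at 36.6 against 27.6, and HK2, a hexokinase, at 12.8 against 10.6. Abundant enzymes were higher by less, with GAPDH at 2383 against 2046 FPKM, ALDOA at 1830 against 1571 and LDHA at 1457 against 1269. LDHB, the other lactate dehydrogenase subunit, was on the lower side at 2348 against 2422 FPKM. Of 20 genes induced by low oxygen 16 were above 0, with a median of 0.11. P4HA2, a collagen prolyl hydroxylase, was at 46.4 against 31.2 FPKM, NDRG1 at 261 against 181, and CA9, a carbonic anhydrase, at 68.9 against 52.3. HIF1A itself was at 53.4 against 52.8 FPKM. In the authors' deposited table, 16.5% of the 170 tested transcripts of the hypoxia group were called higher and 4.71% lower. Over all 78175 tested transcripts these shares were 6.91% and 6.66%.

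Genes of the amino acid stress response were above 0 in 22 of 25 cases, with a median of 0.11, or 0.07 after centring within 5 groups of equal size by GC content. NUPR1, a stress-induced chromatin protein, was at 10.2 against 7.22 FPKM, TRIB3, a pseudokinase, at 37.1 against 30.7, and SLC7A5, a transporter of large neutral amino acids, at 46.3 against 37.6. ATF4, the transcription factor that drives many of them, was at 211 against 201 FPKM, and ATF3 was lower at 10.8 against 12.1. Lysosomal enzymes were above 0 in 26 of 32 cases (median 0.10), with CTSD, a cathepsin, at 297 against 236 FPKM. Of 37 RAB GTPases 26 were above 0, and RAB43 alone was past 1.5-fold at 10.8 against 6.28 FPKM.

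Genes of attachment were higher as well. Of 19 integrin, laminin and hemidesmosome genes 17 were above 0, with a median of 0.13, or 0.14 in protein-coding transcripts. The widest differences were in 3 hemidesmosome genes, PLEC at 69.5 against 47.2 FPKM, COL17A1 at 27.4 against 19.8 and ITGB4 at 34.3 against 26.8. ITGB1, the common beta chain, was at 497 against 449 FPKM. ITGB6 and DST, the latter also a hemidesmosome gene, were the members below 0.

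**Figure D2:**
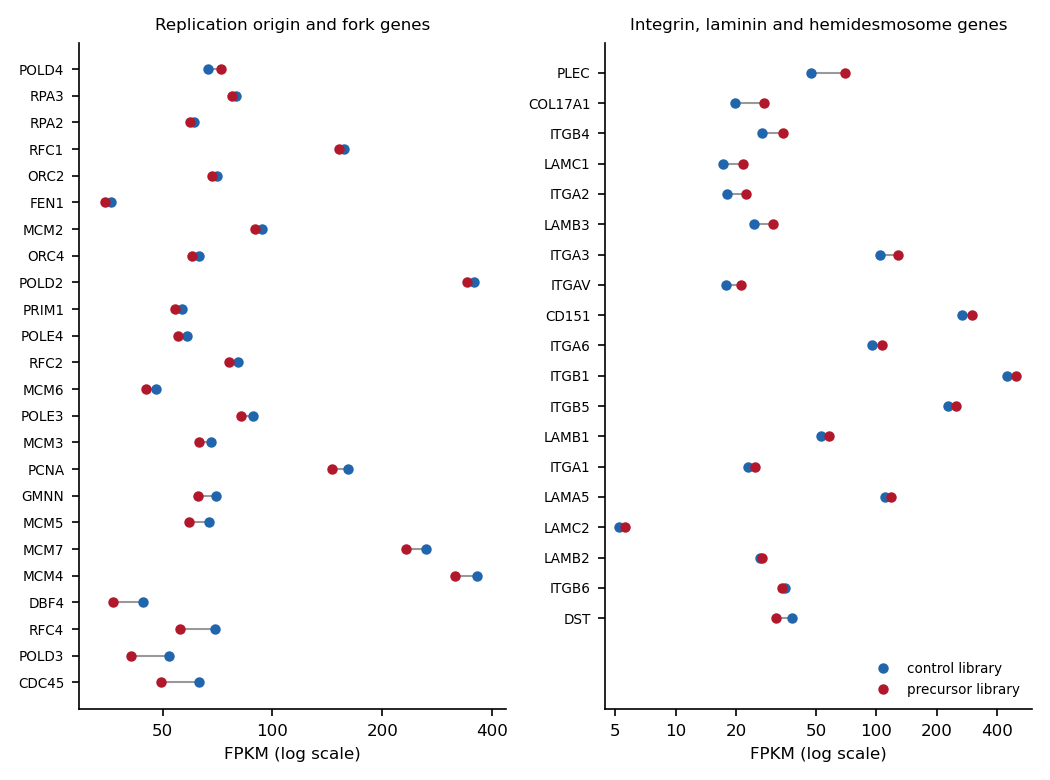
FPKM on a log axis in the control library (blue) and the precursor library (red) for the 24 most abundant of 52 replication genes (left) and all 19 integrin, laminin and hemidesmosome genes (right), ordered by centred difference. The precursor library is to the left of the control in all but POLD4 among the replication genes drawn, and to the right in all but ITGB6 and DST among the attachment genes.

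Desmosome and adherens junction genes had a median of 0.14 with 15 of 19 above 0, but 0.05 in protein-coding transcripts. Tight junction genes had a median of 0.02 with 10 of 16 above 0, CLDN1, a claudin, being at 10.7 against 12.4 FPKM. Brush border and enterocyte genes had a median of 0.04 with 8 of 13 above 0. JUP, of the desmosome plaque, was at 115 against 91.8 FPKM, PVRL2, a nectin, at 66.4 against 51.3, and CDH1, or E-cadherin, at 300.4 against 263. EPH receptors and ephrins, which sort cells along the crypt, were above 0 in 8 of 9 cases with a median of 0.17. Their median was 0.13 both in protein-coding transcripts and within the GC groups, and EPHB4 was at 76.7 against 64.1 FPKM. Tetraspanins had a median of 0.13, or 0.07 in protein-coding transcripts and 0.08 within the GC groups, with CD81 at 197 against 153 FPKM. TSPAN8 lay on the other side at 788 against 871. Of the 15 Wnt target genes 12 were above 0 (median 0.09), AXIN2, the feedback inhibitor, being at 22.6 against 15.6 FPKM and TCF7 at 30.1 against 22.8, while SP5 was at 7.87 against 9.38. Of 26 genes of MAPK feedback and AP-1, 22 were above 0, with ZFP36L2 at 25.8 against 19.9 FPKM. Of 17 Hippo pathway and YAP genes 12 were above 0, with AMOTL2 at 25.7 against 19.99 FPKM and LATS2 at 8.73 against 6.81.

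Mucins and other secreted proteins had a median of 0.18 in the sum of transcripts and 0.04 in protein-coding transcripts. MUC20 was at 34.8 against 26.3 FPKM and KLK6, a secreted protease, at 936 against 756. TFF3, a trefoil peptide of goblet cells, was at 12.6 against 7.89 FPKM (0.59), but its protein-coding transcripts were at 1.79 against 3.35. The processed transcript ENST00000489676.1 carried 10.9 and 4.54 FPKM of the TFF3 sum.

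The miR-23b locus itself gave no reading of the precursor. MIR23B was listed at 0 in both libraries, and MIR23A had no transcript entry. Of 31 measured genes often studied as miR-23 targets, 21 were below 0, with a median of -0.02, and none was past 1.5-fold. Of these 24 had a 7-mer site in their longest 3′ untranslated region in GENCODE 29, 17 of them below 0 with a median of -0.03. APAF1, the core of the apoptosome, was at 12.8 against 14.5 FPKM and XIAP, a caspase inhibitor, at 68.3 against 73.3. TGFBR2, a TGF-beta receptor, was at 31.0 against 32.5 FPKM, ATG12, of autophagosome formation, at 45.2 against 51.3, and MET, a receptor tyrosine kinase, at 150.3 in both. SMAD3, the mediator of TGF-beta signals, was on the higher side at 49.2 against 42.4 FPKM.

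One of the sites of each of these genes, which hold 2 or 3, is printed 5′ to 3′ as in the sense strand of the GENCODE 29 transcript (GRCh38), with the match to the seed in capitals, to show that genes on both sides of 0 hold the same 7 letters.
APAF1: taggatgcaaatgaaAATGTGAa
XIAP: aacctttttggtgccAATGTGAa
TGFBR2: agtccacgttcacaaAATGTGAa
ATG12: tagtaaatcgaatgtAATGTGAa
MET: tactctgatctaatgAATGTGAa
SMAD3: aagtcatacagctcaAATGTGAt
An A follows the match in the first 5, which makes them 8-mers, and a T follows in SMAD3.

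Over all protein-coding genes with a 3′ untranslated region (9188), those with a site were slightly lower. The median difference was 0.01 for 7296 genes with no site, -0.02 for 1447 with 1 site, -0.03 for 328 with 2 and -0.08 for 117 with at least 3, of which 44 were above 0. The share above 0 went from 52.6% with no site to 37.6% with at least 3. Genes with an 8-mer had a median of -0.04 and 38.4% above 0. In each of 4 groups by length of the untranslated region, genes with a site had the lower median, from -0.06 against 0.01 in the shortest to -0.01 against 0.02 in the longest. Past 1.5-fold downward were 5 of the 1892 genes with a site and 30 of the 7296 without. Past it upward were 7 and 20 of the same genes. For the antimir comparison the medians by number of sites were between -0.01 and 0.01.

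**Figure D3:**
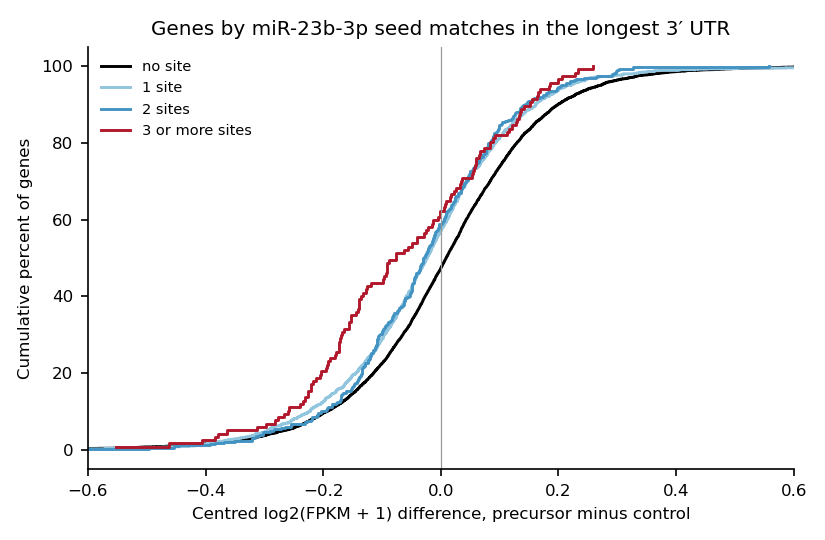
Cumulative percent of protein-coding genes (y axis) at or below each centred log2(FPKM + 1) difference (x axis), for genes with no, 1, 2 or at least 3 matches to the miR-23b-3p seed. At 0 the curve of genes with no site is lowest and that of genes with at least 3 sites is highest.

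GC content moved with the same differences. From the lowest to the highest of 5 groups of genes by GC content, the median difference went from -0.04 to 0.06, and in the antimir comparison from 0.08 to -0.03. Across the 9188 genes, Spearman's rho with GC content was 0.231 in the precursor comparison. It was -0.213 in the antimir comparison, over those of these genes that were also measured there. Both values describe genes that share their libraries. Genes with a site are more frequent at low GC content (674 of 1838 in the lowest group and 80 of 1838 in the highest). Within the 5 groups the gap between genes with and without a site narrowed from -0.04 to -0.01, with the genes holding a site lower in 5 of 5, and genes with at least 3 sites stood at -0.04. The part of GC content in the gap was not tested beyond this. Before grouping by GC content, genes with a site for miR-23b-5p were at 0.03 and those without at 0.00. Genes with a site for miR-27b-3p and without one were both at 0.00, and for miR-24-3p they were at 0.02 and 0.00. Within the GC groups, genes with and without a site were at 0.018 and -0.002 for miR-23b-5p. They were at 0.009 and -0.002 for miR-27b-3p and at 0.013 and -0.002 for miR-24-3p. For miR-23b-3p these values were -0.010 and 0.002. The gaps were not tested against each other.

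Counted in the longest 3′ untranslated region annotated for each gene, zinc finger genes held the most miR-23b-3p sites. The 12 genes with at least 5 sites included 6 of the ZNF family, and 8 of the 12 were below 0. ZNF138 had 17 sites and was at 11.3 against 14.7 FPKM, and ZNF761 had 12 and was at 11.4 against 13.2. ZNF107 with 5 sites was at 4.62 against 6.30 FPKM. ZNF226 with 9 sites was higher in the sum, at 76.7 against 67.6 FPKM, and lower in protein-coding transcripts (-0.12). NCKAP1, a regulator of actin branching with 6 sites, was at 160 against 149 FPKM. The sites shown for 4 ZNF genes are shown because their letters resemble each other before the match, and the stretch was annotated as untranslated in these transcripts. The site of ZNF226, the gene above with the higher sum, resembles them as well and is not printed. Whether such repeated stretches are coding in other transcripts was not tested, so these counts may not be counts of target sites.
ZNF138: gagagaatttctacaAATGTGAa
ZNF761: gagagaaaccttacaAATGTGAa
ZNF525: gagagaaaccttacaAATGTGAa
ZNF107: tggagagaaactacaAATGTGAa
Of 70 ZNF genes with a site 16 were above 0, with a median of -0.12, and of 135 without a site 58 were above 0, with a median of -0.03. Without ZNF genes, the 103 genes with at least 3 sites had a median of -0.04, or -0.01 within the GC groups, against -0.08 with them.

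At transcript level, the share of a gene's FPKM held by each transcript differed little for most genes. The largest difference in share had a median of 4.97 percentage points over the 9389 genes with at least 2 transcripts. It reached 20 points in 229 genes (2.44%) and 50 points in 9, and the transcript with the highest share was another one in 1493 genes (15.9%). Of the latter, 132 also had a shift of 20 points. Shifts were commoner at low level, from 8.52% of genes at a mean of 5 to 10 FPKM down to 0.268% at 50 or more. In 702 genes the transcript that gained most was called higher and the one that lost most was called lower in the authors' deposited table, and 68 of these had a shift of at least 20 points. In the antimir comparison the share shifted by 20 points in 711 of 8642 genes, with a median largest difference of 7.42 points. Calls in both directions were found there in only 8 genes. Between the comparisons, the number of such calls therefore did not follow the size of the shifts, and the reason was not tested.

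Among protein-coding genes with a mean of at least 20 FPKM and no failed transcript, 23 of 5405 shifted by 20 points. WDR5, a WD-repeat scaffold of histone methyltransferases, had the widest exchange between transcripts at an unmoved sum, with 20.8 against 20.4 FPKM. ENST00000425041.1 held 71.5% of it against 30.01%, and ENST00000358625.3 held 28.5% against 69.99%. In SEC13, a coat protein of the endoplasmic reticulum and the nuclear pore, ENST00000350697.3 held 34.3% against 56.0%, and ENST00000337354.4 stood at 24.2% against 5.68%. In XRCC4, of end joining, ENST00000338635.6 held 21.0% against 42.0% and ENST00000396027.4 held 17.3% against 0.0670%. In ELMO3, an engulfment adaptor, ENST00000393997.2 held 79.1% against 64.9%. In ARHGAP18, a GTPase-activating protein, the exchange was between 2 processed transcripts, ENST00000463225.1 at 19.7% against 3.13% and ENST00000483367.1 at 25.8% against 42.8%. None of the 12 genes with the widest shifts called in both directions in the authors' deposited table was past 1.5-fold in its sum.

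**Figure D4:**
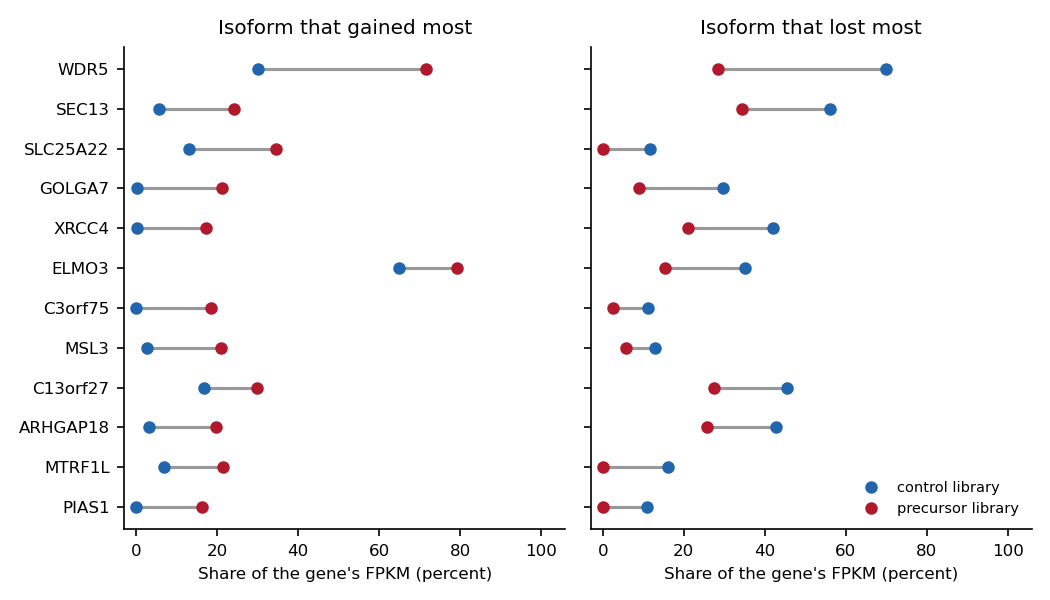
Share of the gene's FPKM (x axis, percent) of the transcript that gained most (left) and the one that lost most (right) in the control library (blue) and the precursor library (red), for the 12 genes with the widest shifts called both ways in the authors' deposited table. WDR5 exchanged its leading transcript, from 30.01% to 71.5% for the one that gained.

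The widest shifts without that condition mostly came from 1 transcript with no counterpart. In 8 of the 12 widest the gene sum was itself past 1.5-fold. CNOT2, of the deadenylase complex, was at 134 against 206 FPKM, and its processed transcript ENST00000548686.1 held 7.47% against 41.4%. NCOA3, a nuclear receptor coactivator, was at 36.6 against 20.9 FPKM through ENST00000490248.1, a processed transcript at 21.5 against 5.73 FPKM. TGFA, a ligand of the EGF receptor, was at 29.6 against 20.55 FPKM. Its coding transcript ENST00000295400.6 was at 13.8 against 14.2, while ENST00000474101.1, a processed transcript, had 6.46 FPKM with the precursor and none listed in the control.

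Transcripts that keep an intron took a smaller share of their genes in the precursor library. Such transcripts are usually held in the nucleus or degraded, and splicing factor genes are known for them. Of 4228 protein-coding genes with at least 1% of their FPKM in retained-intron transcripts, 2599 had a lower share in the precursor library and 1627 a higher one, 61.5% lower, with a median difference of -0.66 points. Retained-intron transcripts made up 8.02% of the FPKM of protein-coding genes in the precursor library and 8.41% in the control, and protein-coding transcripts 65.2% and 64.4%. Transcripts marked for nonsense-mediated decay were at 5.84% and 5.98%, lower in share in 1545 genes and higher in 1597. In each of the 5 groups by GC content and at each of 4 levels of FPKM more genes had a lower retained-intron share than a higher one. In the antimir comparison 1770 genes had a lower share and 2079 a higher one.

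**Figure D5:**
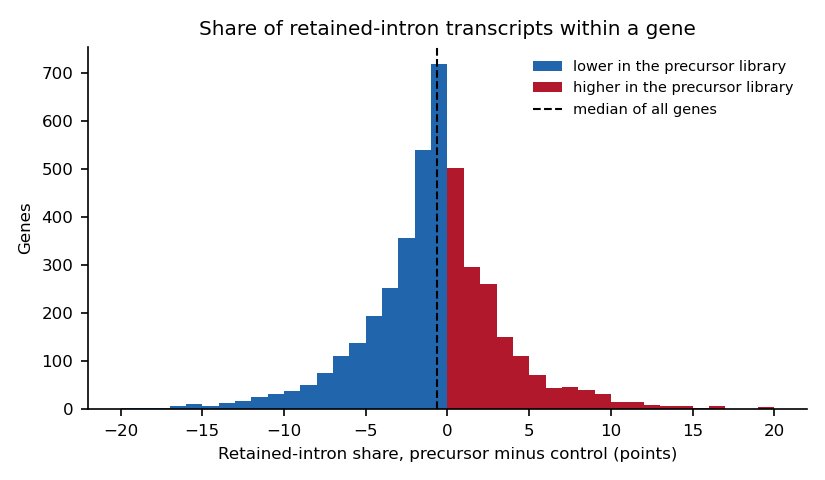
Number of genes (y axis) by the difference in retained-intron share, precursor minus control (x axis, percentage points), for 4211 of 4228 protein-coding genes within 20 points; the dashed line is the median of all 4228, -0.66 points. More genes lie below 0 (blue) than above (red).

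Splicing factors showed this within single genes, but not they alone. The retained-intron share was also lower in 24 of 32 replication origin and fork genes and 22 of 29 DEAD-box helicases. It was lower in only 0 of 6 keratins and 5 of 16 death receptor and caspase genes. Of 20 SR proteins and their kinases 18 were below 0 with a median of -0.13, or -0.08 in protein-coding transcripts, and of 12 with a retained-intron share 10 were lower. SRSF5 was at 243 against 260 FPKM in all, at 61.7 against 79.2 in retained-intron transcripts and at 88.4 against 86.98 in protein-coding ones. SRSF4 was at 168 against 193 FPKM, with 113 against 136 in retained-intron transcripts and 26.0 against 25.7 in protein-coding ones. SRSF7 likewise had 31.2 against 34.0 FPKM with a retained intron and 102.9 against 100.4 coding. CLK4, a kinase of SR proteins, was at 10.5 against 13.2 FPKM with a retained-intron share of 24.2% against 30.3%. CLK1 did not follow in share, with 55.3% against 51.9%, though its sum was 69.8 against 86.4 FPKM. The 28 hnRNP genes had a median of 0.01, but 9 of 10 with a retained-intron share were lower. The authors' deposited table called 15.5% of their 232 tested transcripts lower and 6.90% higher, against 6.66% and 6.91% of all tested transcripts. EWSR1 held 16.8% against 22.3% in retained-intron transcripts, and HNRNPH1, at 992 against 1195 FPKM, had 10 transcripts called lower and 2 called higher in the authors' deposited table.

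Host genes of small nucleolar RNAs, noncoding apart from TAF1D, were mixed in this respect: of 9 with retained-intron transcripts, 6 had a lower share in them and 3 a higher one. The authors' deposited table called 20.3% of the 118 tested transcripts of 14 host genes lower and 2.54% higher, while the median of the gene sums was -0.04. Of all tested transcripts, 6.66% were called lower and 6.91% higher. GAS5 was at 1241 against 1181 FPKM in all and at 188 against 251 in retained-intron transcripts. SNHG1 was at 278 against 295 FPKM and at 83.5 against 104 in those transcripts. SNHG3 had 307 against 280.5 FPKM in them, SNHG13 36.5 against 25.3 and SNHG11 1.68 against 1.32. Of 5 long noncoding RNAs of the nucleus 4 were below 0. MALAT1 was at 69.8 against 108 FPKM (-0.65), and NEAT1, the scaffold of paraspeckles, at 5.58 against 8.30, a value from 1 transcript since others of the gene had failed.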

How the data were processed

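RNA of 4 HT29 libraries was sequenced, 1 per group. Per the submitters' processing notes, bcl2fastq 1.8.3, TopHat2 2.0.11, Cufflinks 2.2.0 and Cuffdiff were used on hg19. Settings and annotation are not given in the sources used here. Per the file headers, the authors deposited FPKM per transcript, with a p-value, q-value and call that compare 2 libraries and not conditions. The 1183 failed transcript entries were left out, and gene-identifier entries were not used. FPKM were summed per gene (mean at least 5) and compared as log2(FPKM + 1), centred on the median. The 1.5-fold and 20-point thresholds carry no test. Transcript classes, GC content and seed sites came from GENCODE 29, matched by identifier without version (96.7% of genes, 89.2% of transcripts). The transcript version was the same in only 22.7%. Pseudogenes were left out of gene groups. The loci printed are those of the deposited table and can span several genes. The calculations were tested on simulated data (Python 3.11.15, pandas 2.3.3).

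Members, gene groups and comparisons were chosen with earlier results of these data known. Named genes were the 10 highest and 10 lowest protein-coding genes, the widest members of each group, reported targets, and 12 genes each for widest shifts and shifts called both ways. Others (the remaining replication, glycolysis, splicing and site-rich genes, and TFF3 transcripts) were chosen after their values were seen. A few genes are not reported here by name, though counts and medians include them.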

Additional observations from a re-analysis of the deposited data

Results flagged for a closer look

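MIR24-1, which neighbours miR-23b in its cluster, had 115 FPKM under its gene identifier with the precursor and 0 in the control. That entry is outside the comparisons above, and its signal over the control is why it is given here. The authors' deposited table gave it a status of too little data. MIR27B, in the same cluster, had 41.9 against 35.8 FPKM under its gene identifier, with an equal status.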

How the results depend on the processing

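No paired analysis was possible because each group held 1 library and no result came from a test. Against 145 genes higher and 190 lower by 1.5-fold, a mean of at least 1 FPKM gave 320 and 351, no filter 456 and 482, protein-coding genes 26 and 35 when centred on their own median, and only entries the authors tested 87 and 141. Against 229 genes with a shift of 20 points, 25 were left at a mean of at least 20 FPKM, 862 came at 1 FPKM, 1626 at 10 points, 47 at 30 points and 68 with calls both ways. Another leading transcript was found in 743 genes at 20 FPKM, against 1493. The following alternatives were chosen after seeing the data. The seed-site gap of -0.035 was -0.01253 within GC groups and between -0.041 and -0.033 elsewhere, and the share of genes with less intron retention lay between 58.7% and 62.8%. Of the named genes past 1.5-fold in the sum, protein-coding transcripts alone gave the opposite sign for BTRC (0.01865), C16orf79 (0.04625), C22orf25 (0.05618), KIF3C (0.2384), LRRC14 (-0.2479), NCOA3 (-0.008951), SYTL4 (0.1718), TFF3 (-0.6785) and ZNF704 (0.05265). The most abundant transcript alone, chosen earlier, turned C22orf25 to 0.1641. The cause of these differences was not tested. Of 979 medians of gene groups under the alternatives, 7 moved by more than 0.1 and 0 reversed. A reversal was counted only for medians at least 0.1 from 0, so sign changes of smaller medians were not counted. Histone methylation genes, for example, went from -0.02 to 0.01 in protein-coding transcripts. Without counts or replicates, neither counting error nor biological spread can be given for any value.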
